A study of Mus musculus with 2 samples.

Results

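In this study 7 host-defence genes of the intestine were followed through 2 single-cell libraries. They were the serum amyloid A genes Saa1, Saa2 and Saa3, lipocalin 2 (Lcn2), the inducible nitric oxide synthase Nos2, the dual oxidase Duox2 and its maturation factor Duoxa2. The genes were chosen by name, and all 7 were present among the 31253 genes of the count tables. Each was described by its raw UMIs (unique molecular identifiers, 1 per captured RNA molecule) in barcodes that reached 500 UMIs and 250 genes and had no more than 25% of their UMIs from mitochondrial genes. Cells of the whole intestine came from 2 wild-type (WT) mice, 1 per library, and were processed with 10x 3' chemistry. The RA library came from the mouse of the collagen-induced arthritis (CIA) group on standard chow. The mouse of the butyrate library ate a 1% butyrate diet, and the labels do not say whether that mouse was arthritic. With 1 mouse per group, diet, disease, animal and dissociation cannot be told apart, so no p-value is given and each interval covers counting error only.

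Serum amyloid A proteins are small secreted apolipoproteins that the liver releases in the acute phase response, and the gut epithelium makes them locally when it meets adherent bacteria. Lipocalin 2 binds bacterial siderophores and so withholds iron, inducible nitric oxide synthase makes nitric oxide from arginine, and dual oxidase 2 releases hydrogen peroxide at the apical membrane once Duoxa2 has brought it out of the endoplasmic reticulum. In epithelium these genes are known targets of interleukin 22, interleukin 17 and NF-kappa B signalling, with C/EBP factors acting on the serum amyloid A and lipocalin genes.

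The genes lie in 4 places of the mouse genome (GRCm38, GENCODE M21). Saa3 (ENSMUSG00000040026, chr7:46711998-46715700, minus strand), Saa1 (ENSMUSG00000074115, chr7:46740497-46742980, minus strand) and Saa2 (ENSMUSG00000057465, chr7:46751790-46754313, plus strand) form 1 cluster, in which Saa1 and Saa2 point away from each other across 8809 bases. Duox2 (ENSMUSG00000068452, chr2:122279247-122298449, minus strand) and Duoxa2 (ENSMUSG00000027225, chr2:122298900-122302885, plus strand) also point away from each other, across only 450 bases. Lcn2 (ENSMUSG00000026822) lies at chr2:32384633-32388252 on the minus strand, and Nos2 (ENSMUSG00000020826) at chr11:78920787-78960254 on the plus strand. The stretches before 3 of the starts are printed because they show how alike the Saa1 and Saa2 promoters are and what separates the oxidase from its partner. They are RefSeq promoter sequences of build GRCm38.p6, read 5′ to 3′ on the gene's own strand, and capitals mark exact matches on either strand to a C/EBP-type motif (TTNNGNAA), a kappa B-type motif (GGGNNNNNCC) or a TATA box (TATAAA).
Saa1 (chr7:46742981-46743230, minus strand): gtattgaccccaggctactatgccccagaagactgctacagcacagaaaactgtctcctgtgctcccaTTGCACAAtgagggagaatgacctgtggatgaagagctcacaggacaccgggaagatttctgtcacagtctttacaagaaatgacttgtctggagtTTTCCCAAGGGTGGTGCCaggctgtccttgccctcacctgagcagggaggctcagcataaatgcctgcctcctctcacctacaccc
Saa2 (chr7:46751583-46751789, plus strand): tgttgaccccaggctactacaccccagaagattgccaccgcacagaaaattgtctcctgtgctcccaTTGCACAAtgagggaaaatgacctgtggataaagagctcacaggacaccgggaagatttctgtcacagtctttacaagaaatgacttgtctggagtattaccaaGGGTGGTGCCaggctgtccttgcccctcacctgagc
Duoxa2 (chr2:122298650-122298899, plus strand): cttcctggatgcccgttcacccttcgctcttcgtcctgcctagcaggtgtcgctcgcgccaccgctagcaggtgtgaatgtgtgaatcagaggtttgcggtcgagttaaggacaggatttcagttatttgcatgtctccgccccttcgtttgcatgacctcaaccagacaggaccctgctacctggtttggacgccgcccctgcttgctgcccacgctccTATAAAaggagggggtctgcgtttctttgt
The Saa1 and Saa2 stretches shared 94.8% of aligned bases over the 250 bases before each RefSeq start, including the TTGCACAA and GGGTGGTGCC matches. In Saa1 a second C/EBP-type match, TTTCCCAA, ended where the kappa B-type match began, and Saa2 had no match at that place. The Duoxa2 stretch covers 250 of the 450 bases between the oxidase and its maturation factor, and its TATAAA began 30 bases before the start. Of the 6 genes with a promoter entry, 5 held a C/EBP-type match within 250 bases, 3 a kappa B-type match, 1 a TATA box and 0 a STAT-type match (TTCNNNGAA). These letters are common: 36.8% of all 32851 mouse promoters held the C/EBP-type motif, 45.8% the kappa B-type, 12.4% the TATA box and 7.02% the STAT-type. Saa1 and Saa2 coding transcripts were 609 and 652 bases long and shared 87.3% of aligned bases, and 90.1% over the last 200 bases, the end that 3' chemistry reads. Reads that fit both genes could not be seen in the deposited counts, so the split between Saa1 and Saa2 UMIs is uncertain.

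The RA library kept 6909 of 10140 barcodes (median 4712 UMIs) and the butyrate library 8247 of 9959 (median 5141 UMIs). The mitochondrial limit removed 30.0% of RA barcodes and 15.4% of butyrate barcodes, and 19 kept barcodes occurred in both libraries. Cells with at least 1 Epcam UMI (an adhesion molecule of epithelium) numbered 1694 in RA and 2092 in butyrate. Within them, surface colonocytes (at least 3 UMIs of the water channel Aqp8) numbered 372 and 579, lower colonocytes (at least 2 UMIs of Hao2 and Aqp4) 273 and 217, and goblet cells (at least 10 UMIs of the mucin Muc2) 144 and 134. Fibroblasts (at least 2 Col1a2 UMIs, no Epcam) numbered 759 and 321, and macrophages (at least 10 UMIs of C1qa, C1qb and C1qc) 130 and 107. The epithelium was colonic by its markers: 8 small intestinal enterocyte markers summed to 24.3 and 25.7 CPM (counts per 1000000 UMIs of the class), with Apoa4 at 0 in both libraries.

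The Epcam rule also caught cells of other types, and this bears on several results. At least 5 UMIs of the B cell genes Cd79a and Cd79b were found in 423 RA and 622 butyrate Epcam-positive cells, and 664 and 817 cells passed with a single Epcam UMI. The 5 adipocyte markers summed to 427 CPM in RA and 126 CPM in butyrate, where Plin1 was at 0, and 9 neutrophil markers summed to 73.7 and 6.83 CPM, with Ngp and Camp at 0 in RA. The 7 fibroblast markers summed to 968 and 405 CPM, and 71 RA and 37 butyrate cells were both surface and lower colonocytes. A stricter class, added after the data were seen, therefore stands beside the results. It required at least 3 Epcam UMIs, under 5 UMIs of Adipoq, Plin1 and Cidec, and under 10 of S100a8 and S100a9. It also required under 5 UMIs of Cd79a and Cd79b, under 2 of Col1a2 and under 10 of C1q genes. Counts below these limits could remain, and no gate removed T cells or other immune cells. The class kept 698 RA cells (median 9033 UMIs) and 937 butyrate cells (median 6667 UMIs).

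The genes fell into those held mainly by surface colonocytes and those with other main sources. Saa1, Nos2 and Duoxa2 UMIs came mostly from surface colonocytes in both libraries, with 83.3% of RA and 86.8% of butyrate Saa1 UMIs, 60.6% and 67.9% of Nos2 UMIs and 60.0% and 75.6% of Duoxa2 UMIs. Duox2 was the same in butyrate (67.8%) and a little more spread in RA (48.9%). Saa2, Saa3 and Lcn2 had different main sources in the 2 libraries. In RA, 60.1% of Saa2 UMIs and 68.8% of Saa3 UMIs lay in 44 cells with adipocyte markers (at least 5 UMIs of Adipoq, Plin1 and Cidec). For Saa2 this rested on 4 of the 44 cells, and 1 cell held 100 of their 116 UMIs. Surface colonocytes held 60 of the 193 RA Saa2 UMIs, so the RA main source of Saa2 depends on that 1 cell. In butyrate only 1 cell met that cut-off, it held 1 Adipoq UMI and 28 of the endothelial gene Cdh5, and it held no UMI of any of the 7 genes. There 91.2% of Saa2 and 58.8% of Saa3 UMIs lay in surface colonocytes. Lcn2 UMIs lay mostly outside epithelium, in cells with lymphatic endothelial markers, in neutrophils and, in RA, in adipocyte-marker cells. The adipocyte-marker and lymphatic-marker cells were separated after the data were seen.

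**Figure D1:**
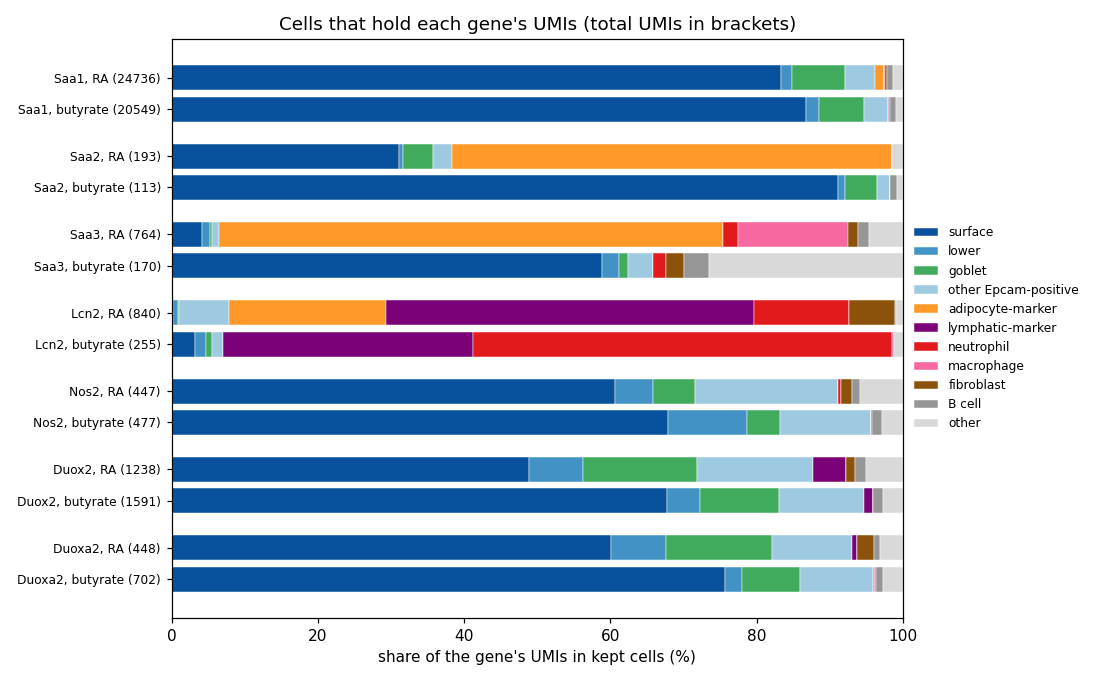
Share of each gene's UMIs by cell class, in percent of the gene's UMIs over all kept barcodes, 1 bar per gene and library, with classes that do not overlap. Surface colonocytes fill most of the Saa1, Nos2 and Duoxa2 bars in both libraries, while Lcn2 has 50.4% of its RA UMIs in lymphatic-marker cells and 57.3% of its butyrate UMIs in neutrophils.

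Among all Epcam-positive cells, 0 of the 7 genes were at least 2-fold higher in butyrate and 2 (Saa3 and Lcn2) at least 2-fold lower, where 1.92% and 6.24% of the 16211 genes with at least 20 UMIs were that far apart. The median log2 ratio of the 7 genes, butyrate over RA, was 0.01, beside -0.02 over all genes measured. In surface colonocytes 6 genes had at least 20 UMIs, of which 1 (Saa3) was at least 2-fold higher in butyrate and 0 lower, with a background of 3.17% and 8.68%. Their median log2 ratio there was 0.71, beside -0.05 over all genes. In lower colonocytes 6 genes had at least 20 UMIs, of which 0 were higher and 3 lower (Saa1, Saa3 and Lcn2), with a background of 1.21% and 6.13%. There 1 RA cell held 110 of the 141 RA Saa3 UMIs and 14 of the 21 RA Lcn2 UMIs. Without cells that were also surface or goblet cells, Saa1 stood at 86.0 CPM in RA and 70.5 CPM in butyrate. With adipocyte-marker cells set apart as well, Lcn2 had 5 UMIs in RA and 4 in butyrate. In goblet cells 4 genes could be measured, and 0 were 2-fold higher (background 1.91%) or lower (5.33%). In the stricter epithelial class the counts turned to 1 higher (Saa3) and 0 lower, with a background of 2.80% and 4.22%.

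**Figure D2:**
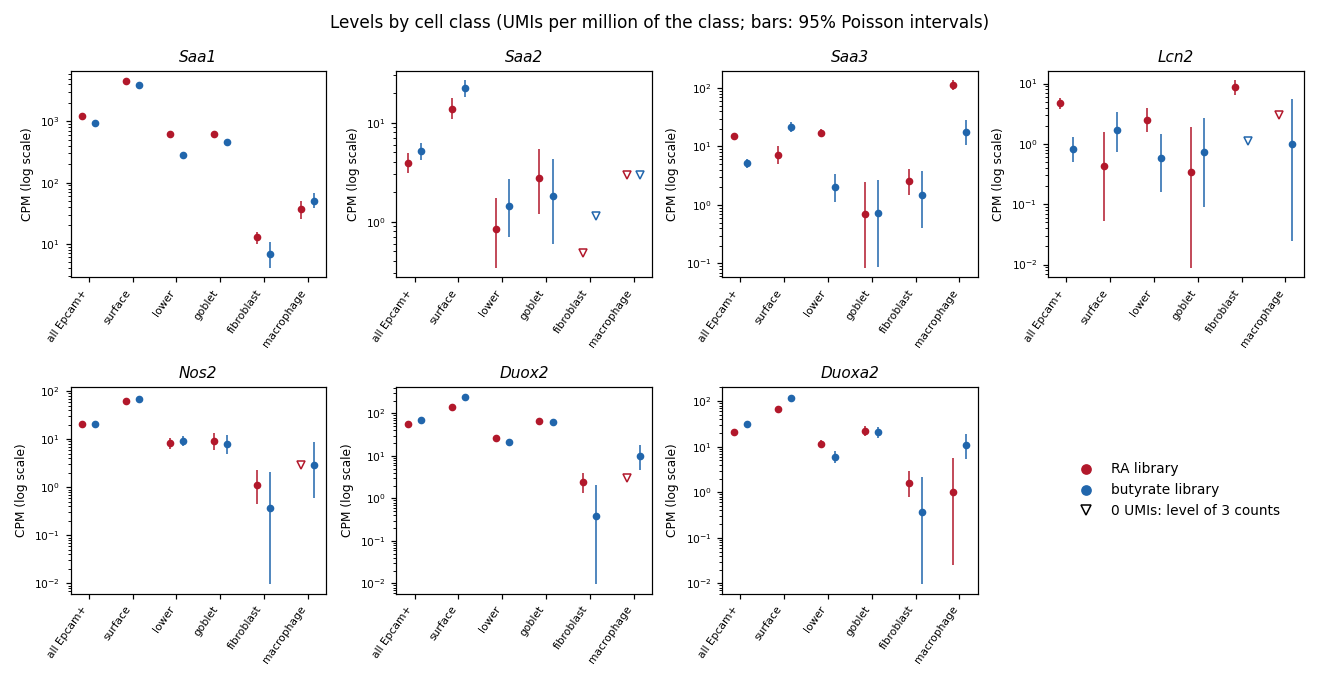
Level of each gene in CPM of the class total (log axis) in the cell classes, 1 point per library with its exact Poisson 95% interval, and open triangles for 0 UMIs, drawn at the level of 3 counts. Saa1 stands at 4647 CPM in RA and 3954 CPM in butyrate surface colonocytes, and at 12.8 and 6.81 CPM in fibroblasts.

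Saa1, the serum amyloid A gene with the most UMIs in these libraries, filled the surface colonocytes of both mice and was slightly lower in butyrate. It reached 4647 CPM in RA surface colonocytes (95% interval 4585 to 4709, 21683 UMIs) and 3954 CPM in butyrate (3897 to 4011, 18494 UMIs), a ratio of 0.851 (0.834 to 0.868). At least 1 Saa1 UMI was found in 98.9% of RA and 97.8% of butyrate surface colonocytes, and the fullest single cells held 345 and 237 UMIs. B cells give a level to read such shares against. Of RA B cells 8.19% (median 4283 UMIs per cell) and of butyrate B cells 5.20% (median 4777 UMIs) also held a Saa1 UMI, at 20.9 and 9.42 CPM. Whether free RNA or doublets gave these B cell UMIs was not tested. The RA value in surface colonocytes was higher beyond counting error, but the ratio between these 2 libraries is small beside the step between cell types. With classes that do not overlap, Saa1 was 56.9-fold higher in surface than in lower colonocytes in RA and 57.1-fold higher in butyrate, and 7.83-fold and 8.63-fold higher than in goblet cells. In lower colonocytes as first defined, Saa1 stood at 634 CPM in RA and 287 CPM in butyrate, a ratio of 0.452 (0.429 to 0.476). Without the cells that were also surface colonocytes or goblet cells, that ratio was 0.820 (0.709 to 0.949), so the gap narrowed once these cells were left out. Goblet cells held 624 and 467 CPM, a ratio of 0.748 (0.696 to 0.804), which was 1.05 in the stricter class.

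Saa2, the neighbour that shares the promoter stretch printed above, had few UMIs in epithelium, most of them in surface colonocytes. Surface colonocytes held 65 Saa2 UMIs in RA (13.9 CPM, 10.8 to 17.8) and 104 in butyrate (22.2 CPM, 18.2 to 26.9), a ratio of 1.60 (1.16 to 2.21). The share of surface colonocytes with a Saa2 UMI was 15.3% in RA and 15.4% in butyrate, at median depths of 8304 and 6084 UMIs per cell. Of Epcam-positive cells with Saa2, 97.1% in RA and 97.9% in butyrate also had Saa1. Nearly all surface colonocytes held Saa1, so this share says little about Saa2 in particular. Of Epcam-positive cells with Duoxa2, 83.7% in RA and 91.6% in butyrate also had Saa1. Saa1 and Saa2 thus lay on opposite sides of 1 in surface colonocytes, and the uncertain split of reads between them was not tested as a source of that. B cells held 0 Saa2 UMIs in RA, which allows up to 0.325 CPM, and 1 in butyrate. Outside epithelium, 116 Saa2 UMIs lay in RA adipocyte-marker cells, 100 of them in a single cell.

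Saa3, the serum amyloid A known from adipocytes and macrophages, rested on very few cells in both libraries. Epcam-positive cells held 297 UMIs in RA (15.3 CPM, 13.6 to 17.1) and 112 in butyrate (5.17 CPM, 4.26 to 6.22), a ratio of 0.338 (0.270 to 0.422). Of the 297 RA UMIs, 247 lay in 6 Epcam-positive cells that also carried adipocyte markers, and butyrate had no such cell. In the stricter epithelial class the direction turned: 38 UMIs in RA against 87 in butyrate, a ratio of 2.14 (1.44 to 3.22), with 43.7% of the butyrate UMIs in 1 cell. Surface colonocytes held 34 UMIs in 32 RA cells (7.29 CPM) and 101 in 43 butyrate cells (21.6 CPM), a ratio of 2.96 (1.99 to 4.51) that was 2.03 (1.30 to 3.23) without the fullest cell of each library. The share of surface colonocytes with Saa3 was 8.60% in RA and 7.43% in butyrate, so a similar share of cells carried it. Of the 101 butyrate UMIs, 38 came from 1 cell and 18 from another. The cell with 18 also held 10 C1q UMIs and so met the macrophage rule too, and no ratio was taken without both cells. In lower colonocytes, 110 of 141 RA UMIs came from 1 cell, and butyrate had 14. Beyond epithelium, RA adipocyte-marker cells held 526 Saa3 UMIs (451 CPM), and 40 butyrate UMIs lay in 1 cell outside every class.

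Nos2, the inducible nitric oxide synthase, did not separate the 2 mice within counting error in surface colonocytes. These cells held 290 UMIs in RA (62.1 CPM, 55.2 to 69.7) and 328 in butyrate (70.1 CPM, 62.7 to 78.1), a ratio of 1.13 (0.960 to 1.33). All Epcam-positive cells gave 21.0 and 21.1 CPM, a ratio of 1.00 (0.877 to 1.15). Nos2 UMIs were found in 31.7% of RA and 27.6% of butyrate surface colonocytes, against 0.280% and 0.207% of B cells. With classes that do not overlap, Nos2 was 13.2-fold higher in surface than in lower colonocytes in RA and 7.04-fold higher in butyrate. Goblet cells stood at 8.99 and 8.06 CPM and lower colonocytes at 8.21 and 9.28 CPM, and in both classes the libraries' intervals overlapped. Macrophages, a textbook source of this enzyme when activated, held 0 Nos2 UMIs in RA and 3 in butyrate, and macrophages without Epcam held 0 in both.

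Duox2, the hydrogen peroxide-making oxidase, was higher in butyrate surface colonocytes. It stood at 141 CPM in RA (131 to 153, 660 UMIs) and 237 CPM in butyrate (223 to 251, 1108 UMIs), a ratio of 1.67 (1.52 to 1.85). The share of these cells with a Duox2 UMI was 59.1% in RA and 61.8% in butyrate, and 18.3% against 24.5% after thinning each cell to 1000 UMIs. The fullest 1 cell did not carry the difference, as the ratio without it was 1.68. Goblet cells did not separate the libraries, with 66.4 CPM in RA and 62.6 CPM in butyrate, a ratio of 0.944 (0.763 to 1.17). Lower colonocytes went the other way, with 27.0 and 21.2 CPM, a ratio of 0.783 (0.631 to 0.969), though the interval reached 1.04 once shared cells were left out. Over all Epcam-positive cells the values were 55.9 and 69.6 CPM, a ratio of 1.24 (1.15 to 1.35), and 1.49 (1.36 to 1.63) in the stricter class. B cells held 2.60 and 1.27 CPM.

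Duoxa2, the partner that Duox2 needs to reach the cell surface, followed the same order of cells and libraries. Surface colonocytes held 309 UMIs in RA (66.2 CPM, 59.0 to 74.0) and 548 in butyrate (117 CPM, 108 to 127), a ratio of 1.77 (1.54 to 2.04). Lower colonocytes held 11.3 CPM in RA and 6.09 CPM in butyrate, a ratio of 0.537 (0.364 to 0.780), and goblet cells 22.5 and 20.5 CPM, a ratio of 0.913. The step from lower to surface colonocytes was wider in butyrate for both genes of the pair. With classes that do not overlap it was 7.38-fold in RA and 16.6-fold in butyrate for Duox2, and 8.87-fold and 36.8-fold for Duoxa2. Several other genes of the same cell profile also lay above 1 in surface colonocytes. Their ratios were 1.64 for Atp12a, 1.67 for Il22ra1, 1.45 for Entpd8, 1.44 for Ceacam20 and 1.22 for Clec2h, while Cyp2d34 had 1.04. They were picked for profiles like those of the 7 genes over both libraries, so their ratios are not independent of that choice. Surface cells with Duoxa2 made up 37.9% in RA and 42.0% in butyrate, and 10.8% and 15.4% after thinning.

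**Figure D3:**
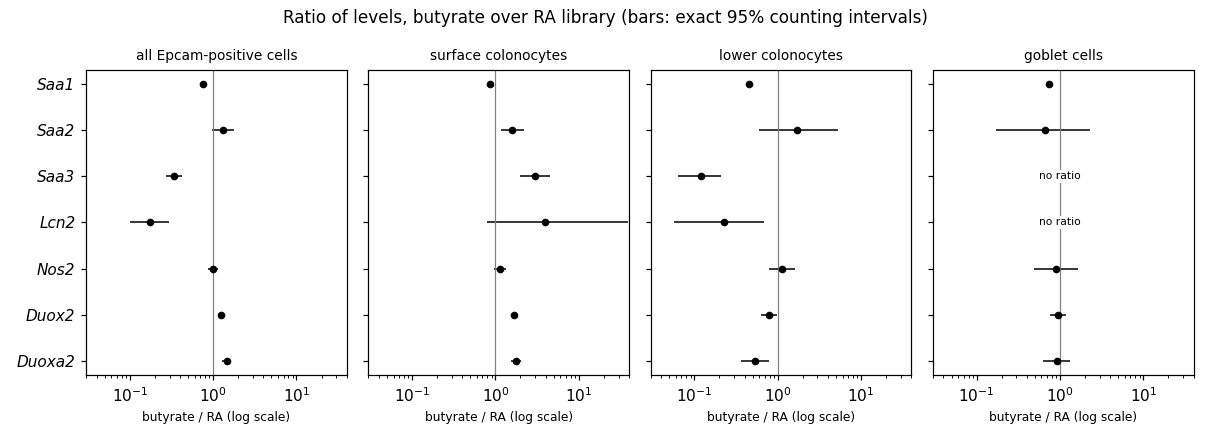
Ratio of CPM, butyrate over RA, for each gene and cell class on a log axis, with exact 95% counting intervals and a line at 1. In surface colonocytes Saa2, Saa3, Duox2 and Duoxa2 lie above 1 with their intervals, Saa1 lies at 0.851, and the Nos2 interval of 0.960 to 1.33 spans 1.

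Along the axis from crypt to surface, read from Aqp8 UMIs in Epcam-positive cells that were not goblet cells, Saa1 was higher at each step than at the one before in both libraries. In RA it went from 74.5 CPM in cells without Aqp8 through 477 CPM at 1 to 2 UMIs and 3281 CPM at 3 to 9 UMIs to 5520 CPM at 10 or more. In butyrate the same steps held 33.8, 373, 2309 and 4711 CPM, below RA at each step. Duox2 levelled off earlier, with 17.4, 72.1, 163 and 136 CPM in RA and 13.0, 57.4, 246 and 243 CPM in butyrate. The 2 libraries lay close for Duox2 until cells had 3 or more Aqp8 UMIs, where butyrate was higher. Duoxa2 ran in the same shape, with 5.75, 14.7, 62.7 and 64.4 CPM in RA and 4.49, 17.9, 124 and 119 CPM in butyrate. Nos2 had 6.30, 30.2, 59.3 and 66.4 CPM in RA and 6.11, 19.8, 90.1 and 66.5 CPM in butyrate, so that its libraries met again in the highest step. Aqp8 counts grow with depth, and the highest step had medians of 8752 UMIs per cell in RA and 6182 in butyrate. Aqp8 itself had a ratio of 1.59 in surface colonocytes with 10% to 25% mitochondrial UMIs and 1.01 in those up to 10%. The same Aqp8 step therefore need not be the same position in both libraries.

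**Figure D4:**
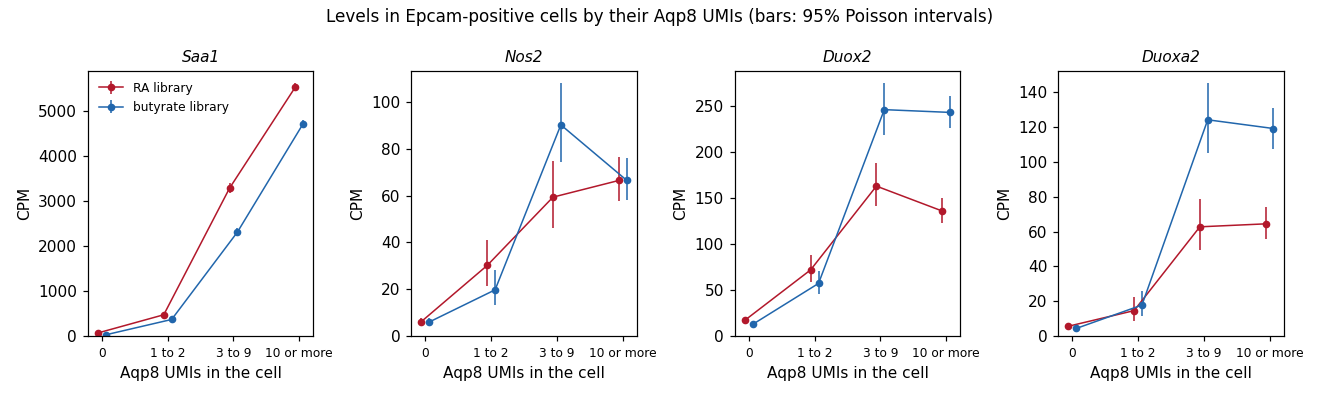
Level of Saa1, Nos2, Duox2 and Duoxa2 in CPM against Aqp8 UMIs per cell (0, 1 to 2, 3 to 9, 10 or more) in Epcam-positive cells outside the goblet class, 1 line per library with exact Poisson 95% intervals. In the last step Saa1 stands at 5520 CPM in RA and 4711 CPM in butyrate, and Duox2 parts between libraries from 3 Aqp8 UMIs upward (163 against 246 CPM at 3 to 9).

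The Duox2, Duoxa2 and Nos2 comparisons changed with the mitochondrial share of the cells, which was high in surface colonocytes (median 18.4% in RA, 19.3% in butyrate). Most Aqp8-positive epithelial barcodes lay above the limit of 25%, and these were split after the data were seen. Up to 10% mitochondrial UMIs, from 43 RA and 64 butyrate cells, the butyrate over RA ratio was 1.61 for Duox2 and 1.67 for Duoxa2. For Nos2 it was 3.34 (1.74 to 6.91), on 12 RA UMIs. Between 10% and 25% the ratios were, in the same order, 1.74, 1.84 and 1.06, from 329 and 515 cells. Between 25% and 50% they were 1.22, 1.20 and 0.669, from 912 and 847 cells. Above 50% they were 0.782, 0.745 and 0.611, from 135 and 108 cells, and the Duoxa2 interval (0.518 to 1.06) spanned 1. The RA level of Duox2 spanned a wider range over the 4 bins than the butyrate level, with 50.9, 167, 293 and 443 CPM against 81.9, 292, 358 and 346 CPM in butyrate. Saa1 stayed below 1 in every bin, with ratios of 0.806, 0.884, 0.579 and 0.744. The part of cell damage or of unequal loss of cells in these ratios was not tested.

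**Figure D5:**
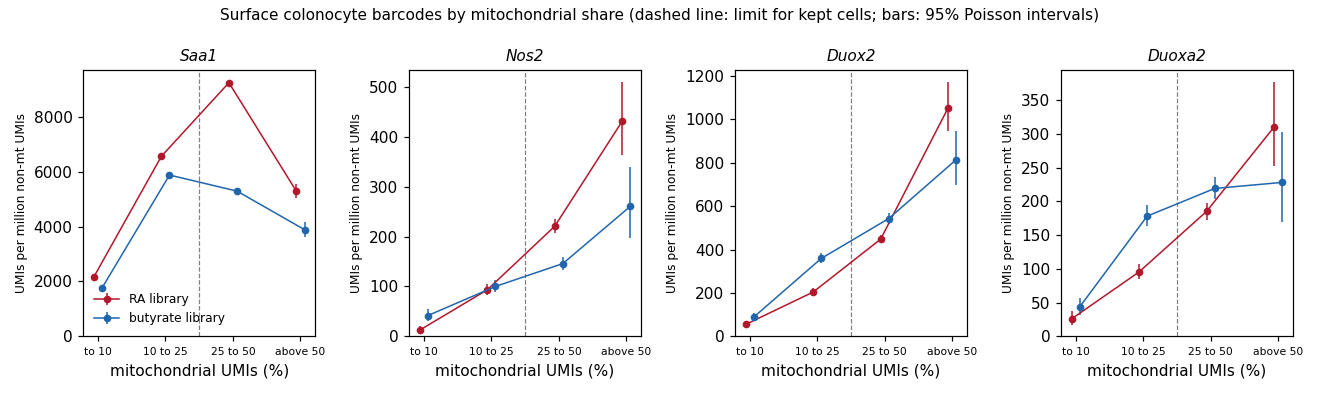
Level of Saa1, Nos2, Duox2 and Duoxa2 in Aqp8-positive epithelial barcodes by their share of mitochondrial UMIs (up to 10%, 10 to 25%, 25 to 50%, above 50%), in CPM of the non-mitochondrial UMIs, 1 line per library with exact Poisson 95% intervals. Duox2 and Duoxa2 are higher in butyrate in the bins up to 25%. In the highest bin the order of the libraries is the opposite, with an interval of the Duoxa2 ratio (0.512 to 1.05) that spans 1.

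Lcn2, the siderophore-binding protein, was at or near 0 in surface colonocytes of both mice. Surface colonocytes held 2 Lcn2 UMIs in RA and 8 in butyrate, all 8 in 1 cell. Over all Epcam-positive cells there were 91 UMIs in 23 RA cells and 18 in 6 butyrate cells, a ratio of 0.177 (0.101 to 0.296). B cells, once cells of the other marker classes were set apart, held 1 Lcn2 UMI in RA and 0 in butyrate. In the stricter class 14 and 10 UMIs remained, in 7 and 3 cells, a ratio of 0.667 (0.265 to 1.61), and 25 of the 91 RA UMIs lay in the 6 Epcam-positive cells with adipocyte markers. Lymphatic-marker cells (at least 5 UMIs of Mmrn1, Prox1 and Lyve1, no Epcam and under 10 C1q UMIs) were the broadest carriers, with Lcn2 in 63 of 82 RA cells and 20 of 25 butyrate cells. Genes outside that gate gave the same picture of the cells, with the endothelial gene Pecam1 at 704 and 660 CPM and the lymphatic receptor Flt4 at 774 and 697 CPM. Lcn2 stood there at 645 CPM in RA (423 UMIs) and 359 CPM in butyrate (87 UMIs), a ratio of 0.557 (0.437 to 0.703). Neutrophils (at least 10 UMIs of S100a8 and S100a9), which store the protein in granules, held 1260 CPM in 28 RA cells and 3093 CPM in 12 butyrate cells, a ratio of 2.46. The 2 sources thus lay on opposite sides of 1, on few cells. RA adipocyte-marker cells held another 180 UMIs (154 CPM), with the acute phase gene Hp at 450 CPM beside it and the adipocyte genes Lpl and Cfd at 13442 and 58684 CPM.

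Lymphatic-marker cells also held Duox2, with few UMIs of its partner. They had 56 Duox2 UMIs in 29 of 82 RA cells (85.4 CPM) and 18 in 11 of 25 butyrate cells (74.3 CPM), a ratio of 0.870 with an interval that spans 1. Duoxa2 had 3 and 1 UMIs in the same cells (4.57 and 4.13 CPM), and Epcam had 0 in both by the gate. In surface colonocytes, by contrast, Duoxa2 UMIs came to 309 beside 660 of Duox2 in RA.

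Fibroblasts and macrophages carried little of the 7 genes. In fibroblasts Saa1 stood at 12.8 CPM in RA and 6.81 CPM in butyrate, below the B cell levels of 20.9 and 9.42 CPM. The source of these fibroblast UMIs was not tested. Saa2 had 0 UMIs in both libraries, which allows up to 0.485 CPM in RA and 1.14 CPM in butyrate. Lcn2 had 54 fibroblast UMIs in RA and 0 in butyrate, but they lay in 8 cells, and the 1 with most (27 UMIs) also held 190 UMIs of the neutrophil gene S100a8. Of the 3 genes with at least 20 UMIs in fibroblasts, 0 were at least 2-fold higher and 1 (Lcn2) lower, with a background of 2.18% and 3.74%. In macrophages Saa3 had 114 UMIs in RA and 18 in butyrate, a ratio of 0.156 (0.0894 to 0.258). However, 106 of the 114 lay in 1 cell, and all 18 lay in another that was also counted as a surface colonocyte. Of the 2 genes measurable there, 0 were 2-fold higher (background 3.99%) and 1 lower (3.73%). Duox2 went from 0 to 10 macrophage UMIs and Duoxa2 from 1 to 11, yet macrophages without Epcam held 0 Duox2 UMIs in both libraries and 0 and 1 of Duoxa2.

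The oxidase pair and Nos2 met in the same cells more often than their separate shares would give. After thinning to 1000 UMIs, 22 RA cells held both Duox2 and Duoxa2 where the product of the shares gives 3.79, and 57 butyrate cells where it gives 9.27. Nos2 and Duox2 met in 12 RA cells, where the product gives 2.59, and in 34 butyrate cells, where it gives 5.77. These genes share the surface class, and its part in the joint counts was not tested. Without thinning, 74.0% of RA and 82.6% of butyrate cells with Duoxa2 also had Duox2. Lcn2 and Saa1 met in 0 thinned cells of either library, where the products give only 1.86 and 0.568, and without thinning in 10 RA cells (product 8.54) and 1 butyrate cell (product 2.28).

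The profile of each gene was compared with all others over 8 cell classes in both libraries, 16 points that share depth and libraries, as Pearson's r of log2(CPM + 10). Saa1 was most like Cyp2d34 (r = 0.989), Clec2h (0.982) and Entpd8 (0.977), and Nos2 most like Prss30 (0.993), Ptprh (0.991) and Ceacam20 (0.990). Duox2 was most like Cyp2d34 (0.983), Bnip5 (0.983) and Clec2h (0.982), while Duoxa2 was most like the interleukin 22 receptor gene Il22ra1 (0.991), the proton pump gene Atp12a (0.987) and Tat (0.982). Saa2 had lower values, with Myzap (0.906), Trim34b (0.904) and Cyp2d9 (0.899). Saa3 was most like Ccl17 (0.861), Rhov (0.783) and Serpinb2 (0.775), and Lcn2 most like Pkhd1l1 (0.952), Reln (0.949) and Flt4 (0.927), the last known from lymphatic endothelium. Among the 7 genes, Saa1, Nos2, Duox2 and Duoxa2 had r between 0.927 and 0.987 with each other, and Saa3 and Lcn2 stood apart from them. The nearest genes depend on the pseudocount: with log2(CPM + 1) those of Saa1 were Il22ra1, Tat and Rbp2, those of Saa3 were Ccl17, Hp and Erbb4, and those of Lcn2 were Pkhd1l1, Slc7a10 and Tbx1.

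Other acute phase genes were more often lower than higher in butyrate Epcam-positive cells. In Epcam-positive cells 12 of 23 had at least 20 UMIs, 0 were at least 2-fold higher in butyrate and 8 lower, beside 1.92% and 6.24% of all genes, with a median log2 ratio of -1.46. The haptoglobin gene Hp had a ratio of 0.158, Lrg1 0.149 and Ptx3 0.147, whereas the iron hormone gene Hamp had 1.96. In the stricter class 8 could be measured, 0 higher (2.80% of all genes) and 2 lower (4.22%), and the median was -0.11 beside -0.06 over all genes. The 2 were Lrg1 at 0.170 (44 and 8 UMIs) and Cp at 0.216 (52 and 12 UMIs, 67.3% of the RA UMIs in 1 cell). There the complement genes C3 and Cfb had ratios of 1.10 and 0.993, and the interleukin 1 receptor antagonist Il1rn 0.989. Adipocyte markers summed to 427 and 126 CPM in the Epcam-positive cells, and their part in the lower values was not tested.

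Lists around the 2 oxidant enzymes are read against 1.92% of all genes 2-fold higher and 6.24% lower in Epcam-positive cells. Of 13 other NADPH oxidase genes measured in Epcam-positive cells, 0 were 2-fold higher and 1 lower (Nox4, 0.468), while the colonic oxidase Nox1 had a ratio of 0.568 and its activator Noxa1 0.619. Nox1 was 0.472 in the stricter class, where Duox2 was 1.49. Surface colonocytes made up 288 of the 698 strict RA cells and 499 of the 937 strict butyrate cells, and the part of this mix in the stricter ratios was not tested. The phagocyte oxidase gene Cybb had 1.59, Ncf4 1.63 and Rac2 1.63, in a class that held 423 and 622 cells with B cell genes, and Cybb had 3.37 in the stricter class, on 36 and 130 UMIs. Of 11 nitric oxide and arginine genes 0 were 2-fold apart. The arginase gene Arg2 had 1.97, Gch1, which makes the cofactor of Nos2, had 1.39, and Ddah1 and Ddah2, which clear a natural inhibitor of the enzyme, had 0.737 and 0.601. Of 18 peroxide and glutathione genes 0 were 2-fold higher and 1 lower (Gpx3, 0.184), and the epithelial glutathione peroxidase Gpx2 had 0.595. Of the 18, 16 lay below 1, with a median log2 ratio of -0.12 beside -0.02 over all genes. In the stricter class 11 of 16 measured lay below 1, with a median of -0.05 beside -0.06. Gpx3 had only 11 RA and 2 butyrate UMIs there. Of 9 iron and lipocalin genes 0 were 2-fold higher and 1 lower (Bdh2, 0.317), with the ferritin gene Fth1 at 1.04 and the transferrin receptor gene Tfrc at 0.915. Of 5 genes for serum amyloid A receptors and partners 0 were 2-fold apart, with Tlr2 at 1.21, Scarb1 at 0.738 and Lrp1 at 0.613.

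Other targets of interleukin 22 and interleukin 17 did not share 1 direction. Of 20 measured in Epcam-positive cells, 1 was at least 2-fold higher in butyrate (Retnlb, a goblet cell defence protein, 4.20) and 5 lower, beside 1.92% and 6.24% of all genes. The antibacterial lectins Reg3b and Reg3g had ratios of 0.0135 and 0.0315, and in the stricter class 0.0156 and 0.0363. The neutrophil gene S100a9 had 0.00544, beside the neutrophil marker sums of 73.7 and 6.83 CPM. In Epcam-positive cells Saa1 had 0.757 and Duox2 1.24, and in the stricter class they had 0.864 and 1.49. The part of interleukin 22 or interleukin 17 in any of these ratios was not tested. Of 19 receptors and regulators 1 was 2-fold higher (Il22ra2, a decoy receptor for interleukin 22, 3.35) and 0 lower, against the same shares, with Tnfaip3 at 1.64 and Cebpd at 0.662. Il22ra2 rested on few cells in the stricter class, with 12 RA UMIs in 7 cells and 74 butyrate UMIs in 4 cells. In the stricter class 18 of the 19 lay above 1, with a median log2 ratio of 0.19 beside -0.06 over all genes. In surface colonocytes only 9 of 18 measured lay above 1, with a median of 0.02 beside -0.05. In lower colonocytes 12 of 18 did (0.25 beside -0.04), and in goblet cells 13 of 18 (0.21 beside -0.06). Il22 itself had 156 RA and 44 butyrate UMIs in Epcam-positive cells, a ratio of 0.253, but over all kept cells 10.5 and 17.6 CPM, a ratio of 1.67. Of 7 upstream cytokine genes measured in Epcam-positive cells, again beside 1.92% and 6.24%, 2 were higher (Il17a, 2.09, and Ifng, 5.80) and 2 lower (Il22, and Il17f, 0.473), all genes of lymphocytes. In the stricter class 4 of the cytokine genes could be measured, 3 higher (Il1b, 4.26, Il6, 4.44, and Ifng, 24.3) and 0 lower, with 2.80% and 4.22% over all genes. Il1b had 91 and 415 UMIs in 8 and 14 cells, with 49.5% and 41.9% of them in 1 cell. Il6 had 4 and 19 UMIs in 3 cells of each library, and Ifng 1 and 26 UMIs in 1 and 7 cells. The part of immune cells left in the stricter class in these values was not tested.

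Stromal and myeloid cells held acute phase genes of their own. In fibroblasts 8 of the 23 had at least 20 UMIs, of which 1 was 2-fold higher in butyrate (Serpina3g, a protease inhibitor gene, 5.22 on 22 and 49 UMIs) and 0 lower, beside 2.18% and 3.74% of all genes. Serpina3n, a related inhibitor, had a ratio of 1.59, C3 0.919, the iron reductase gene Steap4 0.559 and the pentraxin gene Ptx3 0.641. In macrophages 6 could be measured, 2 higher and 0 lower, beside 3.99% and 3.73% of all genes: C3 at 4.21 (20 and 85 UMIs) and the ceruloplasmin gene Cp at 2.04 (33 and 68 UMIs). The phagocyte oxidase genes Cybb and Cyba both had 1.25 in macrophages, Gch1 1.71, Fth1 1.62 and Il1b 1.56. Gch1 was also higher in butyrate fibroblasts, with a ratio of 1.88, while Nos2 itself had 7 and 1 UMIs in fibroblasts and 0 and 3 in macrophages.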

How the data were processed

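Cells of dissociated intestine from 2 mice were run with 10x 3' v3.1 chemistry, per the labels' protocols. The submitters' processing notes name Cell Ranger 6.0.1, Seurat 4.0.3 and 4.0.4 and build mm10, while the deposited matrix header names Cell Ranger 7.1.0. The values used are the raw UMI counts that the authors deposited, 1 matrix per library, with no cell annotation. The total was 61912439 UMIs for RA and 67894477 for butyrate.

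Barcodes under 500 UMIs or 250 genes, or with more than 25% mitochondrial UMIs, were left out. UMIs were summed per library and class and divided by the class total (CPM). Levels have exact Poisson 95% intervals, shares Clopper-Pearson intervals and ratios exact conditional binomial intervals. The ratio intervals were run on simulated Poisson sums, the model that they assume. That run could not check them for UMIs clumped in few cells. With 1 library per group no test was run. Ratios need more than 3 UMIs in 1 library, and against 0 they are bounds from 3 counts. Counts of 2-fold differences over all genes add 0.5 to each sum. Doublets were not removed in the main values: Scrublet's own threshold marked 0 barcodes, and an alternative left out the 382 and 544 with the highest scores.

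The 7 genes, the classes and the gene lists were chosen with earlier results of these data known. Named were the 7 genes, for each the 3 genes most like it, and from each list up to 3 genes per direction (2 outside epithelium) farthest from 1 with at least 50 UMIs and an interval without 1. Genes named outside that rule (Serpina3g in fibroblasts and list values in the stricter class, Bdh2, Il1rn, Fth1 and the marker genes among them) were chosen after their values were seen. Gene IDs matched GENCODE M21 for 31107 of 31253. Of the 7 genes, 6 had a RefSeq promoter entry. Python 3.11.15, numpy 2.4.6, scipy 1.17.1, pandas 2.3.3 and scanpy 1.11.5 were used.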

Additional observations from a re-analysis of the deposited data

Results flagged for a closer look

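Several ratios, butyrate over RA, lay on opposite sides of 1 in different cell classes, each with an interval that excluded 1 or a bound. The difference between classes was not tested, and with 1 mouse per group it has no replicate check. Duox2 had 1.67 in surface colonocytes and 0.783 in lower colonocytes, and in macrophages, with 0 RA UMIs, it was at least 3.30-fold higher. Duoxa2 had 1.77 in surface colonocytes, 0.537 in lower colonocytes and 10.9 in macrophages, where RA had 1 UMI and the counting interval ran from 1.58 to 469. Saa3 had 2.96 in surface colonocytes, 0.119 in lower colonocytes and 0.156 in macrophages. Macrophages without Epcam held 0 Duox2 UMIs in both libraries, and 0 RA and 1 butyrate Duoxa2 UMIs, so nearly all of the macrophage UMIs of the pair lay in cells that also met the epithelial rule. The Saa3 values in lower colonocytes and macrophages each rested on 1 RA cell, which held 110 of 141 and 106 of 114 UMIs. All 18 butyrate macrophage UMIs of Saa3 lay in 1 cell, which was also counted as a surface colonocyte.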

How the results depend on the processing

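All values here are ratios of CPM in Epcam-positive cells, butyrate over RA, unless a class is named. With no mitochondrial limit Duox2 turned to 0.925 and Duoxa2 to 0.989, while Saa1 had 0.578, Saa2 0.867 and Nos2 0.601. With a limit of 10% Saa1 had 0.787, Saa3 0.811, Nos2 1.99 and Duox2 1.01. Thinned to 1000 UMIs per cell, Saa1 had 0.868, Saa3 0.865, Nos2 1.35 and Duox2 1.53. As a mean over cells Saa1 had 0.853, Saa3 0.635, Nos2 1.18 and Duoxa2 1.77. Without the highest doublet scores Saa1 had 0.806, Lcn2 0.0661 and Duox2 1.37. With classes that do not overlap Saa1 had 0.853, Saa3 0.446, Duox2 1.48 and Duoxa2 1.76. In the stricter epithelial class, added after the data were seen, Saa3 turned to 2.14, Lcn2 had 0.667, Saa1 0.864, Nos2 1.19, Duox2 1.49 and Duoxa2 1.77, and the genes at least 2-fold apart went from 0 higher and 2 lower to 1 higher and 0 lower. There Saa3 in lower colonocytes turned to 1.08 and Saa1 in goblet cells to 1.05. The cause was not tested. A shared minimum of 2313 UMIs, the removal of the fullest cell, the subtraction of B cell levels, a fold of 1.5 and leaving mitochondrial UMIs out of the total (added after the data were seen) moved none of these values by more than counting error, although Lcn2 less its B cell level gave no value. Some alternatives gave no value in small classes, where UMIs were too few. No paired analysis was possible because each group has 1 library and no test was run. Depth limits Saa2, Saa3 and Lcn2 most, with 10 or fewer UMIs in several classes.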

Other observations

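The barcodes left out by the limits, most of them for their mitochondrial share, enter the main values of no comparison. They held 44095 Saa1 UMIs in RA and 18118 in butyrate, more than the 24736 UMIs of all kept RA cells and fewer than the 20549 of all kept butyrate cells. They also held 3088 and 2117 Duox2 UMIs, 1449 and 612 Nos2 UMIs and 1162 and 802 Duoxa2 UMIs, but only 5 and 0 Lcn2 UMIs.

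Above the mitochondrial limit of 25% the water channel gene Aqp8, which defines the surface class, had ratios of 1.08 between 25% and 50% mitochondrial UMIs and 1.00 above 50%, beside 1.01 up to 10% and 1.59 between 10% and 25%. Cells with adipocyte markers numbered 44 in RA and 1 in butyrate, and mesothelial cells (at least 3 UMIs of Msln and Upk3b) 13 and 0.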
